A study of Mus musculus with 8 samples.

Results

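Integrins are receptors built from 1 alpha and 1 beta subunit that hold blood cells to vessel walls, matrix and other cells, and this account follows 9 subunit genes of the integrins carried by leukocytes. They were taken by name: Itgam, Itgal and Itgax, whose products pair with the beta2 subunit; Itgb2, which encodes beta2, and its relative Itgb2l; Itga4, Itgb1 and Itgb7, whose products form alpha4beta1 and alpha4beta7; and Itga6, a laminin receptor subunit. The rule names the genes and uses no measured value, although earlier results of these data were known when they were named. The files list 34199 genes, of which 27 are integrin subunits, so 18 other subunits remained for comparison.

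RNA was sequenced in bulk from immortalized granulocyte-macrophage progenitors (iGMPs), mouse C57Bl/6 cells that carry HOXA9 joined to the ligand-binding domain of the estrogen receptor and a GFP reporter under the lysozyme promoter. Every group therefore shares the fusion gene, the reporter and growth in stem cell factor. There were 4 groups of 2 libraries. Uninduced cells (t0) were taken at 0 h in 150 ng/ml estradiol, which keeps the fusion active. CAF-1 OFF cells stayed in estradiol at that dose, with HOXA9 active, and received 500 µM IPTG for 48 h, which drives an shRNA against Chaf1b, a subunit gene of the replication-coupled histone chaperone CAF-1. IPTG-treated control cells received the same doses of estradiol and IPTG for the same time. HOXA9 OFF cells were held without estradiol for 48 h, which inactivates the fusion protein and lets the cells mature. The study worked with clonal lines, describes its RNA-seq tracks as coming from independent subclones, and used a vector with a stuffer sequence as the control for IPTG. The labels tie no library to a clone and do not name the construct in the IPTG-treated control cells.

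Integrin pairs change as a myeloid progenitor matures. Beta2 integrins are restricted to leukocytes: alphaLbeta2 (LFA-1) binds ICAM proteins, alphaMbeta2 (Mac-1, whose alpha chain is CD11b) also binds the complement fragment iC3b and fibrinogen and is abundant on neutrophils and monocytes, and alphaXbeta2 (CD11c) is best known from dendritic cells and macrophages. Alpha4beta1 binds VCAM-1 and fibronectin and keeps progenitors in the marrow, alpha4beta7 binds MAdCAM-1, and alpha6beta1 binds laminin.

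Levels are CPM, the counts of a gene per 1e6 counts of its library, on library sizes scaled by TMM. A gene was called when edgeR's quasi-likelihood test gave a Benjamini-Hochberg false discovery rate (FDR) under 0.05 over all 13080 genes tested and the change was at least 1.5-fold. All 9 members passed the filter on low counts. Libraries held 14044284 to 22423837 gene counts, and 3 counts, taken as the floor of detection, stood for 0.128 to 0.212 CPM. Chaf1b, the target of the shRNA, was at 96.8 and 100.2 CPM in t0, 95.04 and 101.6 CPM in IPTG-treated control, 18.7 and 9.72 CPM in CAF-1 OFF and 48.3 and 41.0 CPM under HOXA9 OFF. Its level was thus lowest in the libraries labelled CAF-1 OFF, and of these replicate 2 held less than replicate 1. Hoxa9 was at 234.3 and 234.6 CPM in t0, 294.3 and 235.6 CPM in IPTG-treated control, 261.1 and 250.6 CPM in CAF-1 OFF and 480.9 and 449.5 CPM under HOXA9 OFF, so HOXA9 OFF names an inactive protein and not a lower transcript level. The summed level of 6 progenitor markers ran from 10230 to 14130 CPM in t0, from 14700 to 15110 CPM under CAF-1 OFF and from 5541 to 7495 CPM under HOXA9 OFF, with every one of the 6 above the floor in each group. In HOXA9 OFF cells 3 of them fell (Cd34, Kit and Ctsg) and Ms4a3 rose (log2 1.19, FDR 0.0117, but 0.0772 without t0 replicate 2 and 0.0546 without HOXA9 OFF replicate 1), and in CAF-1 OFF cells 0 were called.

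The genes lie in a few places of the genome (mm9, GENCODE vM1, gene spans). Itgam (ENSMUSG00000030786.11, chr7:135206154-135271674) and Itgax (ENSMUSG00000030789.7, chr7:135273061-135294171) sit on the plus strand with 1386 bases between them. Itgal (ENSMUSG00000030830.11, chr7:134439774-134478651) lies 727502 bases from Itgam on the same strand. Itgb2 is at chr10:76992997-77028453, Itgb2l at chr16:96643895-96665226, Itga4 at chr2:79095583-79173280, Itgb1 at chr8:131209554-131257100, Itgb7 at chr15:102046426-102062366 and Itga6 at chr2:71583673-71696473. Reads were assigned to exons of these genes. Of the 50-base windows in the longest coding transcript, 90.4% were unique to Itgax, whose remaining 385 windows were shared with Itgad, and at least 99.7% were unique for every other member. Exons of Cerkl on the opposite strand covered 8.04% of the Itga4 exon bases, and the strand setting of the counting is not stated.

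The 250 bases before the annotated start are shown for Itgam and Itgb2l, the members with the highest folds between groups, and for Itgb1, the member that varied least. Sequences are from RefSeq on GRCm38.p6, whose table held 6 of the 9 members, and are printed 5′ to 3′ on the gene's strand. Capitals mark GAGGAA, a core bound by the ETS factor PU.1, and GGGCGG, bound by SP factors, on either strand.
Itgam (chr7:128062390-128062639, plus strand): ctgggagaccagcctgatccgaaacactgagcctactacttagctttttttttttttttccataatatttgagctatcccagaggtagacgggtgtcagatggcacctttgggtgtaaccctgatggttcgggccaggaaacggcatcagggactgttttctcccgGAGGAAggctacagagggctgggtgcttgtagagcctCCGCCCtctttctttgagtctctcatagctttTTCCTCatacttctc
Itgb2l (chr16:96443615-96443864, minus strand): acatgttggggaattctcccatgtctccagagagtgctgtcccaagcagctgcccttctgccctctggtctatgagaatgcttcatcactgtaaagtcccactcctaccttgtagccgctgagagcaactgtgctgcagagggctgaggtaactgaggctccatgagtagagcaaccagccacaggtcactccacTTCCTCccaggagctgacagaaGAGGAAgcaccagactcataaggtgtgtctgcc
Itgb1 (chr8:128685404-128685653, plus strand): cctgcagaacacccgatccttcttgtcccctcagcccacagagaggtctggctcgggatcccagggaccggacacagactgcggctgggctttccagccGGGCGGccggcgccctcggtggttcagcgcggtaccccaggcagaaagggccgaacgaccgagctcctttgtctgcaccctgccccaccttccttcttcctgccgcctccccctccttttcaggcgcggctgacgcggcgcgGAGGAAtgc

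Counted over windows that also take in the 50 bases after the start, GAGGAA occurred 3 times at Itgam (first bases at -84, -15 and 33), 2 times at Itgb2l (-55 and -33) and 1 time each at Itgb1 and Itgb7, and had no match at Itgax or Itga4. It was present in 28.1% of all 32544 windows. GGGCGG was found at Itgam, Itga4 and Itgb1 and in 35.9% of all windows. The letters TGTGGT, bound by RUNX factors, were found at Itgax and Itga4 and in 16.7% of windows, and TTGCNNAA, a C/EBP core, in none of the 6 and in 10.8% of windows. Both strands were searched and no match overlapped another. The PU.1 core was present at Itgam, Itgb2l and Itgb7, which were called in some comparisons, and at Itgb1, which was called in none. Of the members without it, Itgax was called in some comparisons and Itga4 in none. Binding of these sites was not tested. The window of Itgb1 held 27 CpG sites and those of Itgam and Itgb2l 6 and 2, against a median of 7.

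**Figure D1:**
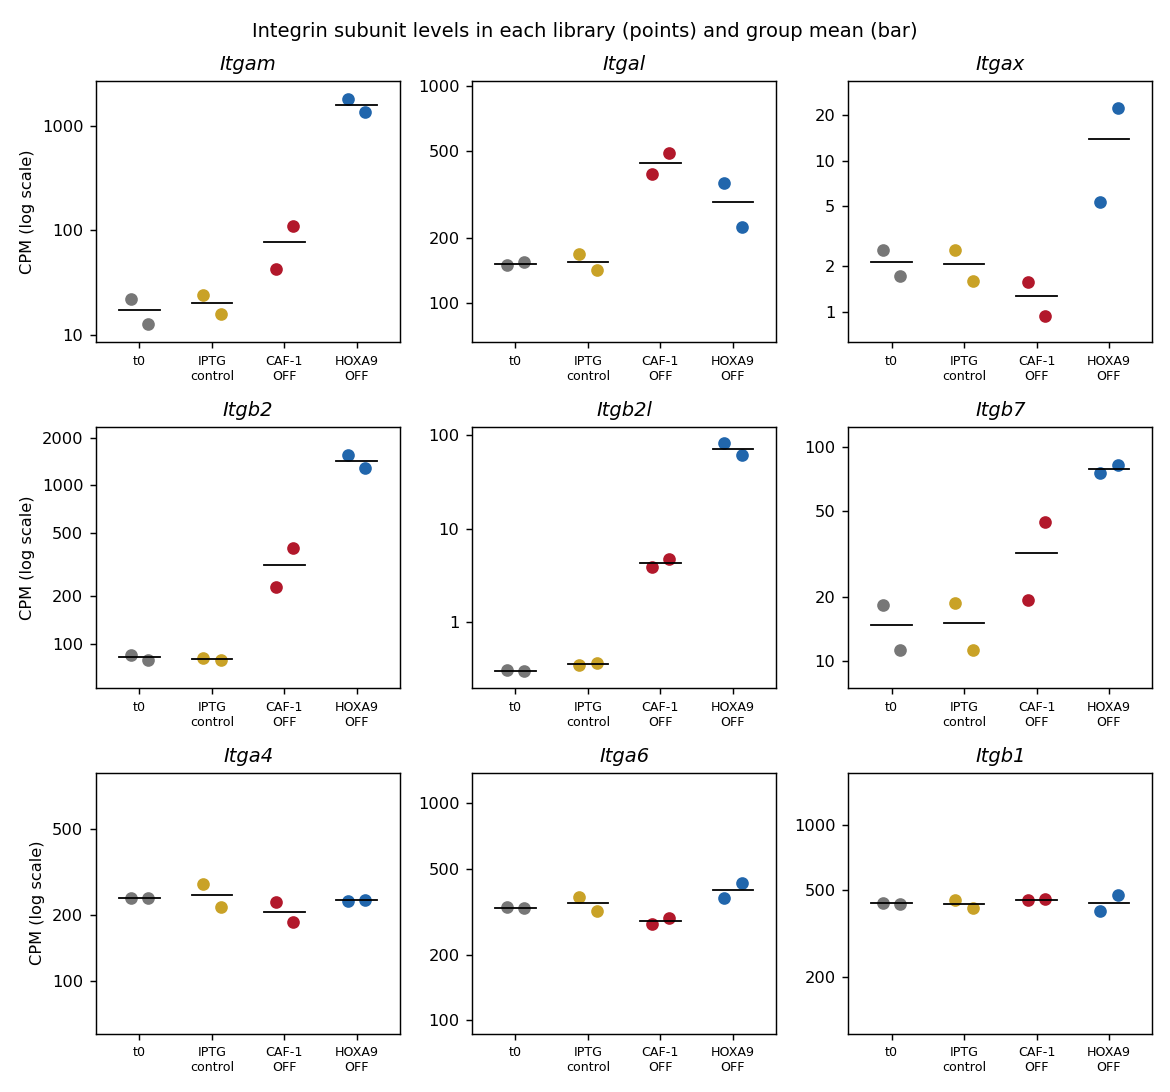
Level of each integrin subunit gene (CPM, log axis with its own range in each panel) in the 2 libraries of each group (points, replicate 1 left) with the group mean (bar). Itgam, Itgb2 and Itgb2l stepped up from t0 through CAF-1 OFF to HOXA9 OFF cells, Itgal was highest in CAF-1 OFF cells, and Itga4, Itga6 and Itgb1 stayed within a 1.38-fold range of group means.

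The comparison of CAF-1 OFF with t0 cells asks how the subunits behave once the chaperone is suppressed. Of the 9 members, 4 rose (Itgam, Itgal, Itgb2 and Itgb2l) and 0 fell, where 10.5% of all tested genes were called higher and 3.50% lower. All 4 belong to the beta2 group or its relative. The count was 1 without t0 replicate 1 (Itgb2l), 2 without CAF-1 OFF replicate 2 (Itgb2 and Itgb2l) and otherwise between 3 and 5 with a library left out. The median log2 fold change was 1.11 over the members and 0.01 over all genes.

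Against the IPTG-treated control, the same 4 genes were called higher and 0 lower, beside 9.56% and 3.20% of all genes, and the count was 2 without CAF-1 OFF replicate 2 or IPTG-treated control replicate 1 and 1 without the control's replicate 2. In HOXA9 OFF against t0 cells, 6 members rose (Itgam, Itgal, Itgax, Itgb2, Itgb2l and Itgb7) and 0 fell, where 25.2% of all genes were called higher and 22.1% lower, and the median log2 fold change was 2.43 over the members and 0.01 over all genes. Both comparisons with t0 use the same t0 libraries. Between IPTG-treated control and t0 cells 0 members were called, as were 0% of all genes. None of the members had an unadjusted p under 0.05 there, against 100 of all genes, and DESeq2 called 5 genes in all, none of them a member. The study speaks of independent subclones, but the labels do not say that the replicates of a group came from separate clones or cultures, so p-values measure the spread between these libraries, which may be in part technical. In bulk RNA, more cells that carry a transcript cannot be told apart from more transcript per cell.

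Itgam encodes the CD11b chain. It was at 22.2 and 12.9 CPM in t0, 24.5 and 15.8 CPM in IPTG-treated control, 42.9 and 110.9 CPM under CAF-1 OFF and 1777 and 1341 CPM under HOXA9 OFF. The 2 reference groups overlapped, and both CAF-1 OFF libraries lay above them and far below both HOXA9 OFF libraries. In CAF-1 OFF cells it was 4.38-fold higher than in t0 (log2 2.13, 95% interval 1.04 to 3.22, FDR 0.0205). Replicate 2 of CAF-1 OFF carried most of this: without it the log2 fold change was 1.29 and the call was lost. Without t0 replicate 1 or t0 replicate 2 the change was 2.57 and 1.79, with FDRs of 0.0839 and 0.107. Against the IPTG-treated control the log2 fold change was 1.93 (FDR 0.0303), and it was 1.09 (FDR 0.185) without CAF-1 OFF replicate 2, and 2.26 (FDR 0.0983) and 1.65 (FDR 0.168) without the control's replicate 1 or 2. The rise in HOXA9 OFF cells was 88.8-fold (log2 6.47, 5.18 to 7.77, FDR 5.92e-05) and stayed between 6.13 and 6.91 with any single library left out. CAF-1 OFF cells held 20.3-fold less Itgam than HOXA9 OFF cells (log2 -4.34, FDR 0.000315).

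Itgal, the alpha chain of LFA-1, followed another order. Its libraries read 149.1 and 154.6 CPM in t0, 168.1 and 142.5 CPM in IPTG-treated control, 394.2 and 489.5 CPM in CAF-1 OFF and 358.0 and 223.9 CPM under HOXA9 OFF. CAF-1 OFF cells were highest, and neither of their libraries overlapped any other group. The rise over t0 was 2.91-fold in CAF-1 OFF (log2 1.54, 1.03 to 2.06, FDR 0.00654) and 1.92-fold in HOXA9 OFF cells (log2 0.94, 0.43 to 1.45, FDR 0.0074). The first of these had an FDR of 0.0635 without t0 replicate 1 and 0.0543 without CAF-1 OFF replicate 2, at log2 fold changes of 1.51 and 1.38. The second fell to 0.56 without HOXA9 OFF replicate 1, which is under 1.5-fold. Against the IPTG-treated control Itgal rose by a log2 of 1.51 in CAF-1 OFF cells (FDR 0.00822), with FDRs of 0.0637, 0.052 and 0.0724 without CAF-1 OFF replicate 2, the control's replicate 1 and its replicate 2. The excess of CAF-1 OFF over HOXA9 OFF cells, log2 0.60 (0.10 to 1.11, FDR 0.0469), was lost in 11 of 17 alternative settings, among them DESeq2, where it stood at 0.58, below the 1.5-fold limit. Leaving out CAF-1 OFF replicate 2 gave 0.44 (FDR 0.227), and HOXA9 OFF replicate 2 gave 0.29 (FDR 0.178).

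Itgax encodes CD11c and was low throughout. It reached 2.58 and 1.71 CPM in t0, 2.54 and 1.59 CPM in IPTG-treated control, 1.58 and 0.940 CPM in CAF-1 OFF and 5.32 and 22.6 CPM under HOXA9 OFF, or 18 to 58 counts per library outside HOXA9 OFF. Its change in CAF-1 OFF cells, log2 -0.76 (-2.36 to 0.83, FDR 0.458), did not pass the test. It rose 6.49-fold in HOXA9 OFF cells (log2 2.70, 1.15 to 4.24, FDR 0.00942), where the libraries differed widely. Without HOXA9 OFF replicate 2 the log2 fold change was 1.31 (FDR 0.0561), and without t0 replicate 2 it was 2.43 (FDR 0.0704). CAF-1 OFF cells lay below HOXA9 OFF cells by a log2 fold change of -3.46 (FDR 0.00437), which was -2.08 without HOXA9 OFF replicate 2. The summed level of 6 monocyte markers was 1238 CPM in replicate 1 and 1797 CPM in replicate 2 of HOXA9 OFF. Within that list Csf1r, the M-CSF receptor of macrophages, read 465.0 and 852.8 CPM in these libraries, and Ccr2 and Cd14 were also higher in replicate 2, but Emr1 (493.3 and 436.3 CPM) and Cx3cr1 (24.8 and 18.4 CPM) were lower there. The 5 dendritic cell markers summed to 1.14 and 4.96 CPM in HOXA9 OFF and to at most 0.578 CPM in any other library, with Cd209a at 0 in all 8 libraries. Nearly all of the gap between the HOXA9 OFF libraries was Siglech, at 0.109 and 3.87 CPM. Xcr1 (0.814 and 0.843 CPM), Clec9a (0.217 and 0.198 CPM) and Zbtb46 (0 and 0.0496 CPM) differed little there. Whether macrophage or dendritic cells had a part in the Itgax reading was not tested. Itgad, which shares windows with Itgax, stayed between 0.248 and 1.16 CPM.

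Itgb2, the common beta chain of LFA-1, Mac-1 and CD11c, was at 85.8 and 79.4 CPM in t0, 82.1 and 79.6 CPM in IPTG-treated control, 229.1 and 400.7 CPM under CAF-1 OFF and 1557 and 1286 CPM under HOXA9 OFF. Both CAF-1 OFF libraries lay above every reference library and below both HOXA9 OFF libraries. The rise over t0 was 3.81-fold in CAF-1 OFF (log2 1.93, 1.36 to 2.50, FDR 0.00515) and 17.2-fold in HOXA9 OFF cells (log2 4.10, 3.48 to 4.73, FDR 2.25e-05). Without t0 replicate 1 the first had an FDR of 0.0527 at a log2 fold change of 1.98. Against the IPTG-treated control the log2 fold change was 1.96 (FDR 0.0052), with an FDR of 0.052 without that control's replicate 2. Between CAF-1 OFF and HOXA9 OFF cells it was -2.17 (FDR 0.000291).

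Itgb2l, a beta2-like gene named for its resemblance to Itgb2, started near the floor with 5 to 7 counts per library in both reference groups. It was at 0.311 and 0.299 CPM in t0, 0.353 and 0.368 CPM in IPTG-treated control, 3.95 and 4.70 CPM in CAF-1 OFF and 81.9 and 61.3 CPM under HOXA9 OFF. The groups with a perturbation were well separated from both reference groups and from each other, and the CAF-1 OFF replicates lay closer together than those of Itgam. It rose 13.9-fold in CAF-1 OFF (log2 3.80, 3.18 to 4.41, FDR 0.000908) and 229.7-fold in HOXA9 OFF cells (log2 7.84, 7.23 to 8.46, FDR 8.53e-06), and each call against t0 held in all 17 alternative settings. CAF-1 OFF cells held 16.5-fold less than HOXA9 OFF cells (log2 -4.05, FDR 2.22e-05). As a share of Itgb2, per kilobase of exon, Itgb2l made up 0.372% and 0.386% in t0, 1.77% and 1.20% in CAF-1 OFF and 5.39% and 4.89% in HOXA9 OFF cells.

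Itgb7 pairs with alpha4 in the gut-homing integrin. Its libraries stood at 18.2 and 11.3 CPM in t0, 18.7 and 11.2 CPM in IPTG-treated control, 19.2 and 44.5 CPM in CAF-1 OFF and 75.7 and 82.9 CPM under HOXA9 OFF. One CAF-1 OFF library was level with the reference groups and the other stood well above them. The change in CAF-1 OFF cells (log2 1.11, 0.14 to 2.08, FDR 0.0961) did not pass the test in edgeR; DESeq2 gave an FDR of 0.0218, and without CAF-1 OFF replicate 1 the log2 fold change was 1.57 (FDR 0.0408) and without replicate 2 it was 0.38. In HOXA9 OFF cells it rose 5.38-fold (log2 2.43, 1.43 to 3.42, FDR 0.00188). CAF-1 OFF cells lay below HOXA9 OFF cells by a log2 fold change of -1.31 (FDR 0.0275), which was -0.83 (FDR 0.116) without CAF-1 OFF replicate 1 and -1.26 (FDR 0.062) without HOXA9 OFF replicate 2.

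The remaining members are the adhesion receptors of progenitors, and none was called in any comparison. Itga4 was at 239.6 and 239.5 CPM in t0, 277.6 and 219.5 CPM in IPTG-treated control, 229.6 and 186.4 CPM in CAF-1 OFF and 233.6 and 235.3 CPM under HOXA9 OFF. Its log2 fold change against t0 was -0.20 (-0.54 to 0.13) in CAF-1 OFF and -0.03 (-0.36 to 0.30) in HOXA9 OFF cells, so a 1.5-fold rise lay outside both intervals. Itgb1, the shared beta chain of the alpha4beta1 and alpha6beta1 pairs, ran from 401.0 CPM in HOXA9 OFF replicate 1 to 475.7 CPM in HOXA9 OFF replicate 2, and all other libraries lay between them. Its log2 fold changes were 0.06 (-0.21 to 0.32) in CAF-1 OFF and 0.01 (-0.26 to 0.27) in HOXA9 OFF cells, and the sign of the second turned under other scalings. Itga6 was at 331.2 and 329.4 CPM in t0, 371.4 and 320.2 CPM in IPTG-treated control, 278.7 and 296.9 CPM in CAF-1 OFF and 365.2 and 430.1 CPM under HOXA9 OFF. The CAF-1 OFF libraries were the lowest of the 8 and lay 1.38-fold below HOXA9 OFF cells (log2 -0.47, -0.75 to -0.19, FDR 0.0129), short of the 1.5-fold limit except without HOXA9 OFF replicate 1, where the log2 fold change was -0.59. Against t0 it was -0.20 (-0.48 to 0.08) in CAF-1 OFF and 0.27 (-0.01 to 0.55) in HOXA9 OFF cells.

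**Figure D2:**
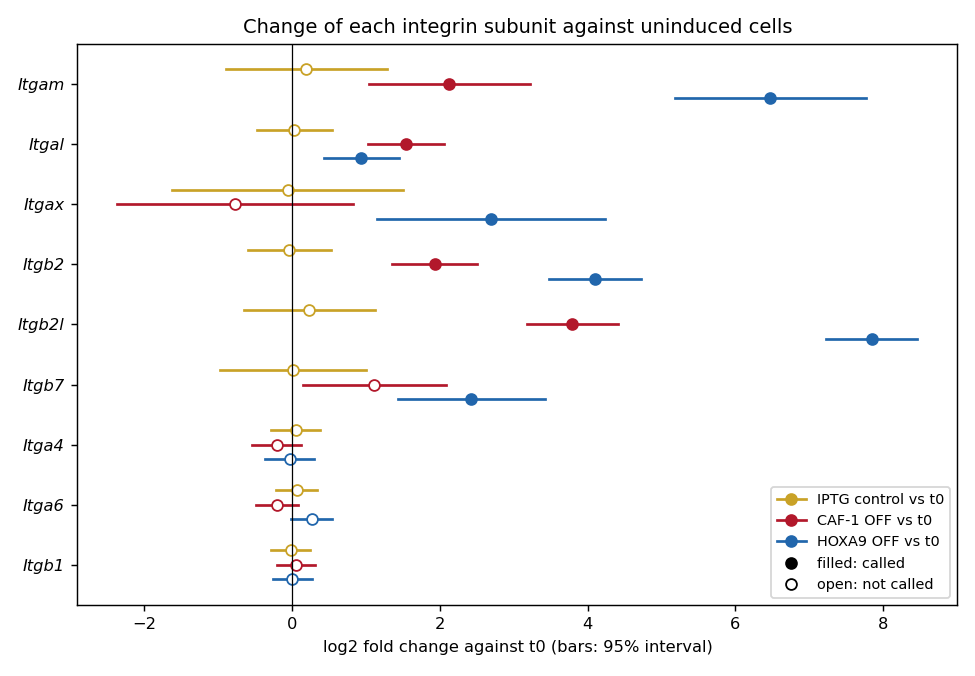
Log2 fold change of each subunit gene against t0 (horizontal axis) with its 95% interval, for IPTG-treated control, CAF-1 OFF and HOXA9 OFF cells; filled points were called. The intervals of the IPTG-treated control all span 0, and Itgal is the only called member whose point lies further right in CAF-1 OFF than in HOXA9 OFF cells.

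Set directly against HOXA9 OFF cells, CAF-1 OFF cells had 1 member higher (Itgal) and 5 lower (Itgam, Itgax, Itgb2, Itgb2l and Itgb7), where 22.2% of all genes were called higher and 21.4% lower. The median log2 fold change was -1.31 over the members and 0.04 over all genes.

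The balance of subunits was compared per kilobase of exon, so that genes of unequal length can be set side by side. Itgal made up 85.0% and 90.8% of the summed Itgal, Itgam and Itgax level in t0, 85.5% and 88.6% in IPTG-treated control, 89.7% and 81.3% in CAF-1 OFF, and 16.7% and 14.0% in HOXA9 OFF cells. Itgam accounted for 12.7% and 7.59% in t0, 9.77% and 18.4% in CAF-1 OFF, and 82.9% and 83.8% in HOXA9 OFF cells. Itgal thus remained the largest share in CAF-1 OFF cells while the sum rose, and Itgam was the largest in HOXA9 OFF cells. The mix was not unchanged: CAF-1 OFF replicate 2 had less Itgal and more Itgam than any reference library. Itgax made up 2.32% and 1.59% in t0, 2.04% and 1.56% in IPTG-treated control, 0.566% and 0.246% in CAF-1 OFF, and 0.391% and 2.22% in HOXA9 OFF cells. Its share in CAF-1 OFF cells was below that of every reference library. These are shares of transcripts and not of protein.

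The 3 alpha genes together amounted to 0.978 and 1.02 times the Itgb2 level in t0, 1.15 and 0.967 times in IPTG-treated control, 0.918 and 0.719 times in CAF-1 OFF, and 0.659 and 0.596 times in HOXA9 OFF cells. The ratio was lowest in HOXA9 OFF cells and did not overlap between them and any other group. Among Itgb1, Itgb2, Itgb2l and Itgb7, Itgb2 took 19.8% and 19.0% in t0, 38.7% and 50.3% in CAF-1 OFF, and 76.9% and 71.6% in HOXA9 OFF cells. Itgb7 stood at 0.0617 and 0.0386 times Itgb1 in t0 and at 0.281 and 0.259 times in HOXA9 OFF cells, while CAF-1 OFF replicate 1, at 0.0632, was near t0 and replicate 2, at 0.145, was above it. With 2 libraries a group, an exact permutation test of these shares could not reach the threshold, and none was made.

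**Figure D3:**
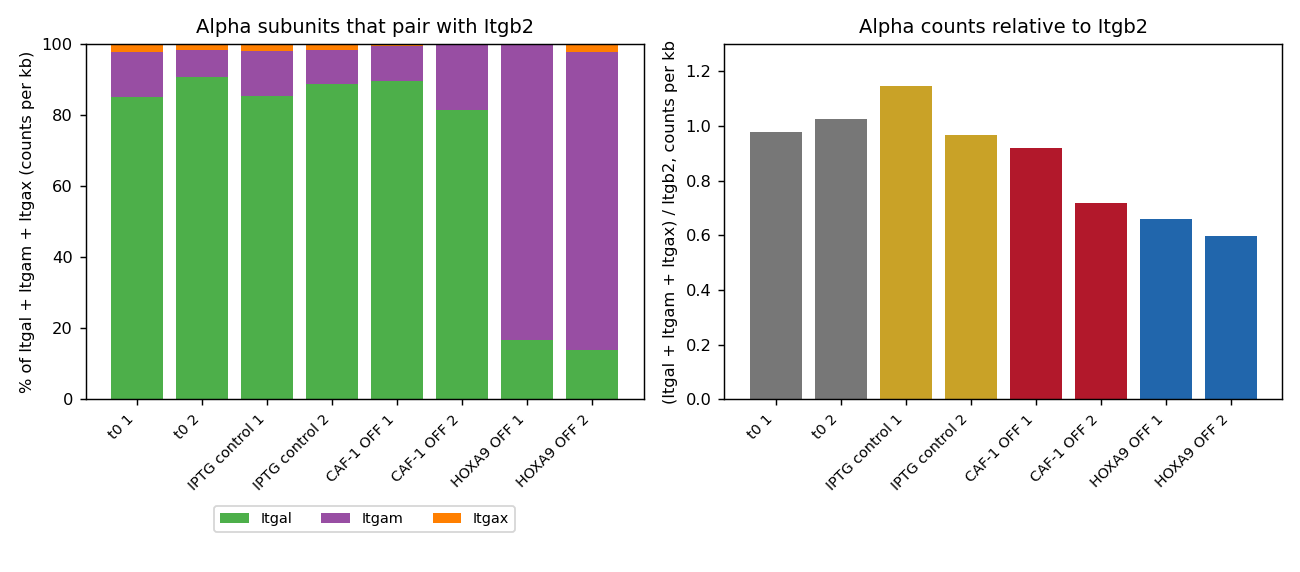
Left, share of Itgal, Itgam and Itgax in their summed level per kilobase (percent) in each library; right, the same sum divided by the Itgb2 level per kilobase. Itgal is over 80% in all t0, IPTG-treated control and CAF-1 OFF libraries and under 20% in both HOXA9 OFF libraries, and the ratio is lowest in HOXA9 OFF cells.

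On the same scale, in CPM per kilobase, the order in t0 cells was Itgb1 (107.0 ± 0.629, SD, n = 2), Itga6 (36.6 ± 0.146), Itgb2 (27.1 ± 1.48), Itgal (23.8 ± 0.610), Itga4 (17.1 ± 0.00536), Itgb7 (5.37 ± 1.78), Itgam (2.75 ± 1.03), Itgax (0.530 ± 0.152) and Itgb2l (0.102 ± 0.00287), and neighbours in this order did not overlap. In CAF-1 OFF cells Itgb1 (111.3 ± 0.665), Itgb2 (103.2 ± 39.8) and Itgal (69.3 ± 10.6) came first. Itgb1 overlapped Itgb2, and Itgb2 overlapped Itgal, as did Itga4, Itgam and Itgb7 with their neighbours further down. HOXA9 OFF cells put Itgb2 (465.7 ± 62.9) and Itgam (244.5 ± 48.3) above Itgb1 (107.4 ± 12.9), and only Itgal (45.6 ± 14.9) and Itga6 (44.1 ± 5.08) overlapped as neighbours.

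The genes whose pattern over the 8 libraries was nearest to each member were sought among 9575 genes by the root mean square (RMS) difference of centred log2 CPM, which is 0 for identical shapes. Nearest to Itgam was 1100001G20Rik (0.25), followed by the myeloid receptor gene Cd300lf (0.44) and the chemokine gene Ccl6 (0.47), against a median of 2.67 over all genes. Itgb2 was nearest to Tbc1d8 (0.14), Nlrp12 (0.23) and Ms4a6c (0.26), with a median of 1.74. For Itgb2l the list was headed by Cd177 (0.37), a neutrophil surface protein that binds beta2 integrin, then C3 (0.40), the complement protein whose fragment iC3b is a Mac-1 ligand, and Slfn1 (0.42). Itgal lay nearest to Abcc2 (0.16) and Itgax to St6gal1 (0.10). Itgb7 had as neighbours Hlx (0.18) and Irf8 (0.20), the latter encoding a transcription factor of the monocyte and dendritic lineages, and Sp100 (0.23). The steady members lay nearest to genes that were steady too, Itga4 to Yy1 (0.07), Itgb1 to Ankrd13c (0.04) and Itga6 to Vps4a (0.07), with medians of 0.37, 0.35 and 0.40.

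Of the 18 other integrin subunits, 13 were tested. In CAF-1 OFF against t0 cells 3 rose and 0 fell, where 10.5% of all genes were called higher and 3.50% lower. In HOXA9 OFF against t0 cells 6 rose and 2 fell, beside 25.2% and 22.1% of all genes. Itga2b, the alphaIIb chain of platelets and early progenitors, was at 14.9 and 17.5 CPM in t0, 109.0 and 74.5 CPM in CAF-1 OFF and 114.2 and 93.2 CPM under HOXA9 OFF, with log2 fold changes of 2.50 (FDR 0.0019) and 2.68 (FDR 4.44e-05). Its partner Itgb3 stood at 77.9 and 67.6 CPM in t0, 144.0 and 161.1 CPM in CAF-1 OFF and 317.6 and 303.9 CPM under HOXA9 OFF (log2 1.07, FDR 0.00324, and 2.09, FDR 1.67e-05). Both genes rose under both perturbations, and the summed level of 6 megakaryocyte markers was 23.9 to 26.0 CPM in t0, 193.2 to 220.1 CPM in CAF-1 OFF and 127.9 to 138.3 CPM under HOXA9 OFF. That list includes Gp1bb, which was at 0 in every library. The part of megakaryocyte-like cells in these readings was not tested.

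Itga9, whose product joins beta1 and binds VCAM-1 and osteopontin, was the integrin gene that fell furthest. It held 54.3 and 54.4 CPM in t0 and 68.5 and 46.3 CPM under CAF-1 OFF but 1.25 and 0.743 CPM under HOXA9 OFF (log2 -5.77, FDR 1.32e-05), while its change in CAF-1 OFF cells was 0.08 (FDR 0.813). Itgad, whose product also pairs with beta2, fell in HOXA9 OFF cells from 1.16 and 0.812 to 0.271 and 0.248 CPM (log2 -1.90, FDR 0.0276), a call that DESeq2 did not make (FDR 0.105) and that was lost without any single t0 or HOXA9 OFF library. The vitronectin receptor genes Itgav (log2 0.74, FDR 0.00302) and Itgb5 (1.46, FDR 0.00589) rose in HOXA9 OFF cells, as did Itga8 (2.60, FDR 0.0169), which stayed at or below 4.01 CPM. With scaling by library size alone Itgav stood at 0.55, under the 1.5-fold limit. Without t0 replicate 1 neither Itgb5 nor Itga8 was called, and Itga8 was not called without t0 replicate 2 or HOXA9 OFF replicate 1 either. Itga1 and Itga2, collagen receptor genes, were at or under the floor on average in t0. Itga2 reached 1.05 and 0.888 CPM under CAF-1 OFF and Itga1 2.44 and 4.76 CPM under HOXA9 OFF, and each passed the test there with edgeR but not with DESeq2 (FDR 0.0587 and 0.223), nor without either t0 library. Itga5, which pairs with beta1 to bind fibronectin, was at 62.8 to 92.9 CPM in all 8 libraries and was not called, and Itga10, Itgae and Itgb4 were not called against t0 either.

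Transcripts of several ligands of the members were present in the same libraries. Of 13 tested ligand and counter-receptor genes, 7 rose and 0 fell in CAF-1 OFF, where 10.5% of all genes were called higher and 3.50% lower. In HOXA9 OFF cells 5 rose and 3 fell, beside 25.2% and 22.1% of all genes. C3 was at 16.5 and 10.3 CPM in t0, 95.5 and 182.1 CPM under CAF-1 OFF and 1854 and 1196 CPM under HOXA9 OFF (log2 3.37, FDR 0.00516, and 6.83, FDR 3.19e-05). Vcam1, the ligand of alpha4beta1, was at 0.801 and 0.941 CPM in t0, 11.9 and 96.9 CPM in CAF-1 OFF and 7.81 and 5.55 CPM under HOXA9 OFF (log2 5.95, FDR 0.01, and 2.93, FDR 0.0289). C3, like Itgb2, was highest in HOXA9 OFF cells, and Vcam1 had its highest reading in CAF-1 OFF replicate 2. Icam1, a ligand of LFA-1 and Mac-1 that was picked out after its values were seen, was at 7.07 and 8.68 CPM in t0, 21.2 and 29.3 CPM in CAF-1 OFF and 35.2 and 45.1 CPM under HOXA9 OFF (log2 1.68, FDR 0.00543, and 2.35, FDR 8.95e-05). The first of these calls was lost without t0 replicate 1 (log2 1.53, FDR 0.0561). Icam2, another ligand of LFA-1, fell in HOXA9 OFF cells from 129.0 and 109.5 to 53.4 and 51.0 CPM (log2 -1.19, FDR 8.02e-05). Spp1, which encodes osteopontin, rose there (log2 4.45, FDR 0.00225), and the laminin gene Lama5 fell (log2 -2.83, FDR 0.00433). Thy1, which also binds Mac-1, went from 20.7 and 11.9 CPM in t0 to 0.109 and 0 CPM under HOXA9 OFF, and stood at 158.9 and 71.4 CPM under CAF-1 OFF. With libraries left out in turn, C3, Icam2, Spp1 and Lama5 kept these calls. The size of the Spp1 rise rested on the HOXA9 OFF libraries, at a log2 of 2.46 without replicate 2 and 5.25 without replicate 1, and Lama5 stood at -1.86 without t0 replicate 2. The Vcam1 change in CAF-1 OFF cells was 3.76 without CAF-1 OFF replicate 2 and 6.76 without replicate 1. Vcam1 lost its call in both comparisons without t0 replicate 1 or t0 replicate 2, and in HOXA9 OFF also without HOXA9 OFF replicate 1.

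Genes of integrin activation, which turn the receptor on from inside the cell or signal after it binds, were called mostly in HOXA9 OFF cells. Of 27 tested, 4 rose and 1 fell in CAF-1 OFF, where 10.5% of all genes were called higher and 3.50% lower. In HOXA9 OFF 21 rose and 1 fell, beside 25.2% and 22.1% of all genes. In CAF-1 OFF against HOXA9 OFF cells 1 was higher and 22 lower, beside 22.2% and 21.4% of all genes. The Src-family kinase gene Fgr was at 5.87 and 3.42 CPM in t0, 10.8 and 13.8 CPM in CAF-1 OFF and 184.7 and 125.8 CPM under HOXA9 OFF (log2 1.40, FDR 0.0174, and 5.06, FDR 1.88e-05). The adaptor gene Lcp2 rose in HOXA9 OFF cells (log2 3.05, FDR 0.000256). Parvb, which encodes a link between integrins and actin, moved in opposite directions, with 16.2 and 11.7 CPM in t0, 34.2 and 30.9 CPM in CAF-1 OFF and 4.99 and 5.01 CPM under HOXA9 OFF (log2 1.22, FDR 0.0159, and -1.48, FDR 0.00165). Vcl, vinculin, rose in CAF-1 OFF cells (log2 0.69, FDR 0.0161), and Cytip, an inhibitor of cytohesin-driven LFA-1 adhesion, fell (log2 -0.67, FDR 0.0306). In HOXA9 OFF cells both rose, Vcl by a log2 of 1.74 (FDR 4.6e-05) and Cytip by 0.90 (FDR 0.0024), so Cytip too was called in opposite directions. These 4 CAF-1 OFF calls (Fgr, Parvb, Vcl and Cytip) were each lost without either t0 library or without CAF-1 OFF replicate 2, and the HOXA9 OFF calls of Fgr, Lcp2, Parvb, Vcl and Cytip were kept with any library left out.

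Selectins act before integrins, in the rolling of a leukocyte along the vessel wall. Of 7 tested selectin, ligand and carrier genes, 4 rose in CAF-1 OFF, 5 in HOXA9 OFF and 0 fell in either. Among all genes, 10.5% rose and 3.50% fell in CAF-1 OFF, and 25.2% rose and 22.1% fell in HOXA9 OFF cells. Selplg, the ligand PSGL-1, rose in both CAF-1 OFF and HOXA9 OFF cells (log2 0.87, FDR 0.0151, and 1.80, FDR 9.57e-05). Of 7 tested enzymes that build selectin ligands, 1 rose in CAF-1 OFF and 5 in HOXA9 OFF cells, and none fell. St3gal6 was the gene in CAF-1 OFF (log2 1.34, FDR 0.0304), and Gcnt1 (1.36, FDR 0.000627), Fut4 (1.33, FDR 0.00259) and B4galt1 (1.25, FDR 6.45e-05) led in HOXA9 OFF cells. The CAF-1 OFF calls of Selplg and St3gal6 were lost without t0 replicate 1, t0 replicate 2 or CAF-1 OFF replicate 2.

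Among 6 proteases (Adam8, Adam10, Adam15, Adam17 and Bace1, which are membrane proteins, and the secreted gelatinase Mmp9), 1 rose in CAF-1 OFF and 3 in HOXA9 OFF cells. The shares of all genes called were 10.5% higher and 3.50% lower in CAF-1 OFF, and 25.2% higher and 22.1% lower in HOXA9 OFF cells. The single gene in CAF-1 OFF was Adam17, a sheddase of cell surface proteins (147.7 and 155.9 CPM in t0, 319.8 and 265.2 CPM in CAF-1 OFF, log2 0.95, FDR 0.011). In HOXA9 OFF cells Mmp9 rose from 1.78 and 1.11 to 308.5 and 185.4 CPM (log2 7.41, FDR 3.16e-05), Adam8 by a log2 of 5.35 (FDR 3.59e-05) and Adam15 by 0.93 (FDR 0.000591). Of 10 membrane partners of integrins, 3 rose and 0 fell in CAF-1 OFF, and 6 rose and 1 fell in HOXA9 OFF cells, beside the same shares. Plaur, the urokinase receptor that associates with Mac-1, rose in both (log2 1.24, FDR 0.013, and 3.02, FDR 4.38e-05), and so did the tetraspanin gene Cd9 (1.82, FDR 0.0171, and 2.03, FDR 0.00236). Over all 7 lists, 83 of 101 genes were tested. CAF-1 OFF had 23 of them higher and 1 lower than t0, and HOXA9 OFF 51 higher and 7 lower, to be read against the percentages of all genes given above. The 24 calls in CAF-1 OFF cells came to 4 without t0 replicate 1, 8 without t0 replicate 2 and 8 without CAF-1 OFF replicate 2. Of the calls named here, Adam17, Cd9 and Plaur in CAF-1 OFF cells were lost without either t0 library, Plaur and Cd9 also without CAF-1 OFF replicate 2 and Cd9 also without replicate 1. Those in HOXA9 OFF cells were kept, Cd9 at a log2 of 1.29 without HOXA9 OFF replicate 2. The IPTG-treated control had 0 listed genes called.

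**Figure D4:**
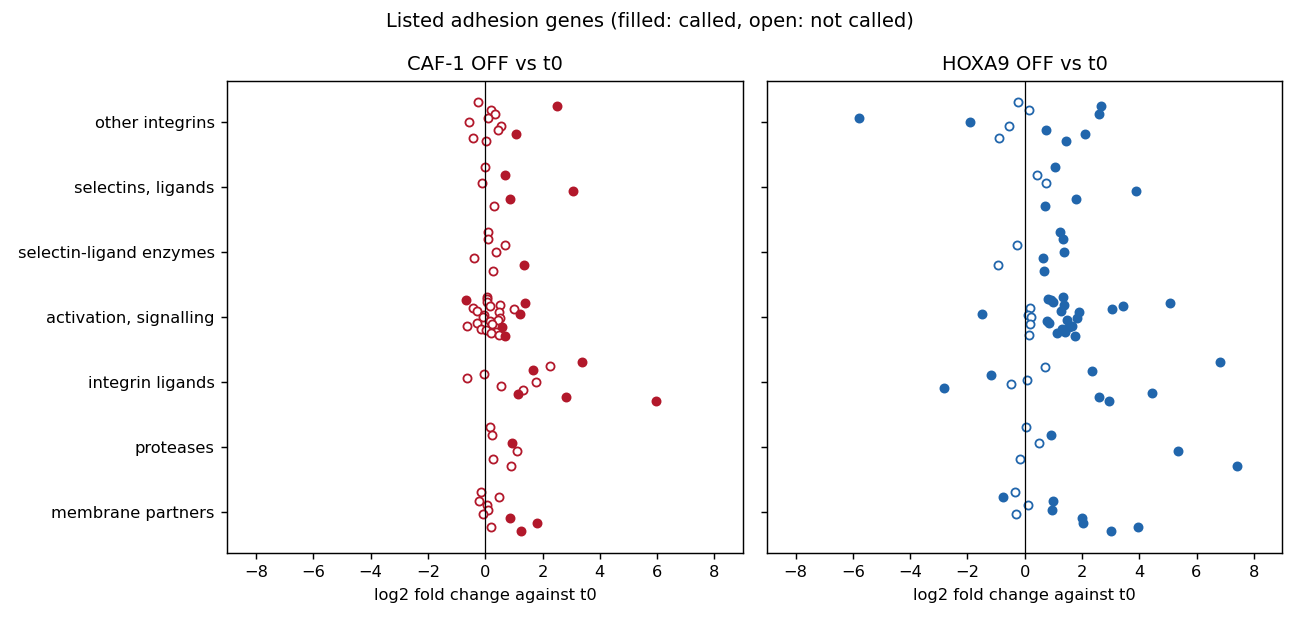
Log2 fold change against t0 (horizontal axis) of each tested gene in the 7 adhesion lists, in CAF-1 OFF (left) and HOXA9 OFF cells (right); filled points were called, and genes whose mean was at or under 3 counts in a compared group are left out. Most of the activation and signalling genes are filled and to the right of 0 in HOXA9 OFF cells, where 21 of 27 rose, and open in CAF-1 OFF cells, where 4 of 27 did. Among all tested genes, 25.2% rose in HOXA9 OFF and 10.5% in CAF-1 OFF cells.

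Of the marker lists, the neutrophil sum stepped up across the groups as Itgb2 did, and the others followed different orders. The 9 markers of maturing neutrophils summed to 49.0 to 66.1 CPM in t0, 1159 to 2050 CPM under CAF-1 OFF and 5375 to 7881 CPM under HOXA9 OFF, with all 9 above the floor in both perturbed groups. Within that list the collagenase gene Mmp8 alone gave 1090 and 1936 CPM under CAF-1 OFF, most of the sum there. It read 556.1 and 376.0 CPM under HOXA9 OFF, so it did not follow the order of Itgb2. The granule gene Ltf read 0.474 and 0.523 CPM under CAF-1 OFF, against 1440 and 968.2 CPM under HOXA9 OFF. The 6 monocyte markers summed to 389.9 to 551.1 CPM in t0, 265.3 to 533.5 CPM under CAF-1 OFF and 1238 to 1797 CPM under HOXA9 OFF. Ccr2 made up most of the sum in t0 (330.9 and 521.7 CPM) and CAF-1 OFF cells (463.8 and 158.8 CPM). Of the 5 monocyte markers tested, 2 rose in CAF-1 OFF and 4 in HOXA9 OFF cells, with a median log2 fold change of 1.59 and 4.05. Those in CAF-1 OFF were Csf1r, from 5.07 and 3.72 to 11.5 and 17.0 CPM (log2 1.69, FDR 0.0266), and the chemokine receptor gene Cx3cr1, from 1.01 ± 0.768 to 12.7 ± 2.35 CPM (SD, n = 2, log2 3.64, FDR 0.00861). Without CAF-1 OFF replicate 2 neither was called (FDR 0.173 and 0.0591), and Csf1r was not called without t0 replicate 1 or 2 either (FDR 0.11 and 0.128). The 5 mast cell and basophil markers summed to 149.3 to 201.6, 658.3 to 1051 and 164.2 to 222.2 CPM in the same groups, with Fcer1a at or near 0. T cell markers Cd3e and Cd3g were at 0 in all 8 libraries, and the 5 T and B cell markers reached at most 17.2 CPM, in CAF-1 OFF replicate 1. The 6 erythroid markers summed to 571.5 to 678.7, 581.8 to 629.6 and 288.3 to 394.9 CPM, nearly all of it Tfrc. What share of the integrin readings each lineage accounts for was not tested.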

How the data were processed

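Bulk RNA-seq was measured in 8 libraries of mouse iGMPs, 4 groups of 2, grouped by their labels. Per the methods of the study, the authors made NEBNext directional libraries, aligned the reads with STAR (mm9) and used HTSeq-count. What they deposited are counts per gene, raw, without normalization or pooling. The strand setting and annotation version are not given in the sources used here. HTSeq leaves reads with several alignments unassigned, which lowers counts of near-identical sequence. Summary lines that name no gene were left out, and reads outside genes were 15.0% of assigned plus such reads in IPTG control replicate 1 and 5.46% to 7.99% elsewhere.

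Counts were fitted with edgeR 4.0.16 in R 4.3.3: filterByExpr, TMM factors (0.895 to 1.06), and a single quasi-likelihood fit of all 8 libraries by group. Calls needed at least a 1.5-fold change besides an FDR under 0.05. Intervals are 95% from the standard error implied by F. The biological coefficient of variation was 18.9%, which with 2 libraries a group sets the precision; floors cover counting error only. Levels between genes were divided by the union of exons in GENCODE vM1. Log2 CPM used a prior count of 2, and genes searched for likeness had a group mean of at least 10 CPM. Named genes were the 9 members, the other tested integrin subunits, and per list and comparison up to 3 of the highest and lowest calls; marker genes and values printed beside a member were chosen after their values were seen. Some listed genes are counted in their lists but not reported here by name. The members and gene lists were chosen with earlier results of these data known. Alternatives were DESeq2 1.42.0 (size factors or test), library size scaling, other filters and thresholds, fits of the compared libraries alone, a replicate block and leaving out each library. The code was tested on simulated data. Figures were drawn with matplotlib 3.10.9.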

Additional observations from a re-analysis of the deposited data

How the results depend on the processing

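In settings that left every library in, the number of members called stayed within 1.5 times its main value in all 5 comparisons. Leaving out 1 library took the 4 members called in CAF-1 OFF against t0 to between 1 and 5, and the 4 against the IPTG control to between 1 and 5, the lowest being without t0 replicate 1 and without IPTG control replicate 2 and resting on fewer samples than the fit of all 8. The cause was not tested.

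Directions that turned were all of changes that were not called. Itgb1 in HOXA9 OFF against t0 went to -0.18 by library size, -0.025 with no filter and -0.013 with only the compared libraries, and ran from -0.12 to 0.12 with a library left out. Library size scaling moves the median of all genes from 0.01 to -0.18 in that comparison. It put Itga4 at 0.06 in CAF-1 OFF against HOXA9 OFF cells, where it moves the median from 0.04 to 0.27. Itgb1 in that comparison ran from -0.076 to 0.169 with a library left out. Between IPTG control and t0, leaving out a library gave -0.15 to 0.64 for Itgam, -0.43 to 0.27 for Itgax, -0.094 to 0.146 for Itgal, -0.086 to 0.024 for Itgb2, -0.13 to 0.21 for Itga4, -0.079 to 0.043 for Itgb1, -0.40 to 0.40 for Itgb7 and -0.048 to 0.168 for Itga6.

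With the replicate number as a block, 4, 6, 0, 4 and 6 members were called in the order CAF-1 OFF, HOXA9 OFF and IPTG control against t0, CAF-1 OFF against IPTG control and against HOXA9 OFF, which changed 0 of 45 calls. The labels do not say that numbers mark shared cultures. Differences between replicates correlated across genes at 0.30 to 0.48 between pairs of t0, IPTG control and HOXA9 OFF. In pairs with CAF-1 OFF the correlation was -0.04 to 0.08.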
